A study of Mus musculus with 24 samples.

Results

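Isg15 is a small ubiquitin-like protein that cells make after type I interferon and attach to other proteins. The attachment, called ISGylation, runs through a chain of enzymes: Uba7 activates Isg15, Ube2l6 carries it, and a ligase, which in mouse is chiefly Herc6, passes it to a lysine of the target protein. Usp18 is the protease that takes Isg15 off again, and it also binds the receptor chain Ifnar2 and dampens signalling from the type I interferon receptor. The 5 genes of this modifier, its 3 enzymes and its protease were followed through a dose series of interferon (IFN) epsilon and IFN beta in ID8 cells, a mouse ovarian cancer line derived from surface epithelium. They were chosen by gene symbol out of 22911 genes named on the array.

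Cells received 1 of 3 doses of recombinant mouse IFN epsilon (10, 100 and 1000 IU/ml), the same doses of recombinant mouse IFN beta, or the vehicle PBS (untreated cells), all for 3 h. Both are type I interferons. IFN epsilon is made by epithelium of female reproductive organs, and IFN beta by many kinds of infected cell. Each group had 3 samples made on 3 separate dates, except IFN beta at 10 and at 100 IU/ml, which had 2, because the submitters' labels mark their arrays of date 3 as excluded for unusually strong induction of interferon genes. That exclusion was made on the kind of gene measured here, so the results on these groups are given with the excluded arrays too. All groups were 1 cell line, and pooled wells stand behind each sample.

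Values are log2 of the background-subtracted array intensity minus the array's 75th percentile, so 1 unit is a 2-fold difference. Over the 22 arrays used, the 75th percentile of intensity was 643.5 to 1221, and 50.1% to 58.8% of probe spots were well above background. Each of the 5 genes was read by 1 probe with 1 spot, and each probe was well above background on 22 of 22 arrays, so none of the values is a bound. The 2 arrays of an untreated sample differed by a median of 0.05 over the 5 genes and by at most 0.45. Of markers listed for cell types, 6 of 6 epithelial and 3 of 3 mesothelial genes were above background on every array. Among leukocyte genes, Ptprc was above background on 0 arrays, Adgre1 on 1, and Cd3e, Cd68 and Itgam on all 22. The endothelial gene Cdh5 was on 0 arrays, while Kdr was on 22 and 4 of 4 fibroblast genes were on all.

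Isg15 lies on chromosome 4 of the mouse genome (GRCm38.p6) at chr4:156199424-156200818, Uba7 on chromosome 9 at chr9:107975567-107984056 and Ube2l6 on chromosome 2 at chr2:84798828-84810003. Herc6 at chr6:57580992-57665136 and Usp18 at chr6:121245906-121270917 share chromosome 6. RefSeq promoter sequences (250 bases before to 50 after the start site, same build) were matched for 4 of the 5 genes, Isg15, Uba7, Ube2l6 and Herc6. They were searched on both strands for the core GAAANNGAAA of the interferon-stimulated response element, the site that complexes with Stat2 and Irf9 bind, and for the STAT core TTCNNNGAA. Isg15 is shown because it held the first motif 3 times, as overlapping matches that run together between positions -78 and -57 from the start site (capitals), and Ube2l6 because it had the smallest change of the 5 genes at 1000 IU/ml of either interferon.
Isg15: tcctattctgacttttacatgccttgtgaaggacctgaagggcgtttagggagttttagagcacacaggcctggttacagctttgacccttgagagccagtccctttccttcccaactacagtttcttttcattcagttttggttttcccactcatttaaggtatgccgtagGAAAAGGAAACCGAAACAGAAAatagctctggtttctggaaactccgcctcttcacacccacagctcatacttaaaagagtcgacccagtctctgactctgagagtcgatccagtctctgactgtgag
Ube2l6: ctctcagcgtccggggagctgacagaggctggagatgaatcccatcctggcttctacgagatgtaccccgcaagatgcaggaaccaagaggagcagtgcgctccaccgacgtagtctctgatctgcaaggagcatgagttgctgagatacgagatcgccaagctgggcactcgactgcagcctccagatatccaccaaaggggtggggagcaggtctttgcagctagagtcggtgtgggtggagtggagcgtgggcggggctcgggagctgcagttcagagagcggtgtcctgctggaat
The Isg15 window is chr4:156200769-156201068 on the minus strand, and that of Ube2l6 is chr2:84798578-84798877 on the plus strand, both written 5′ to 3′ along the gene. Those letters do not occur in the windows of Ube2l6, Uba7 and Herc6, and the STAT core occurs in 0 of the 4. Among all 32851 RefSeq promoter windows of this length, 3.44% held the first motif and 8.30% the second.

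All 5 genes were higher in cells given 100 or 1000 IU/ml IFN epsilon, or 1000 IU/ml IFN beta, than in untreated cells. Usp18 showed the largest log2 change of the 5 at every dose of either interferon, up to 49.5-fold at 1000 IU/ml IFN epsilon. Ube2l6 showed the smallest, except at 10 IU/ml IFN beta, where the smallest in size was that of Uba7 (0.09) and Ube2l6 had -0.16. In RNA of whole wells, more responding cells and more RNA per cell cannot be told apart. Isg15 and Usp18 rose at 10 IU/ml IFN epsilon. At 10 IU/ml IFN beta, with 2 samples kept, 0 of the 5 genes and 0% of all genes passed the test. With the 2 excluded arrays in the fit, the changes there were 1.61 ± 0.85 for Isg15 and 2.50 ± 1.08 for Usp18 (log2, SE). In that fit 0 of the 5 were called at 10 IU/ml of either interferon. The changes with IFN epsilon were the same there as without these arrays, and their SE was larger (0.85 in place of 0.39 for Isg15). The test between the interferons at 10 IU/ml called 0 of the 5 without a block for date and 2 with it, beside 0.0979% and 0.119% of all genes. At 1000 IU/ml, 0 of the 5 genes and 0% of all genes passed the test between the interferons.

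Isg15, the modifier itself, had its highest group mean with IFN epsilon at 1000 IU/ml (7.04, 7.18 and 7.56 on dates 1, 2 and 3). It stood at 5.59, 5.87 and 6.57 with 10 IU/ml IFN epsilon and at 6.63, 7.0 and 7.36 with 100 IU/ml. With IFN beta it was 3.97 and 3.39 at 10 IU/ml (dates 1 and 2), 5.42 and 5.63 at 100 IU/ml, and 6.77, 6.95 and 7.70 at 1000 IU/ml. Untreated cells had 3.33, 2.55 and 4.33, so the samples given 10 IU/ml IFN beta overlapped them, and every sample of the other 5 treated groups lay above them. Untreated cells also spread the most, with an SD of 0.89 (n = 3), and date 3 was the highest date in all 5 groups that have it. Against untreated cells Isg15 rose 6.10-fold at 10 IU/ml IFN epsilon (log2 2.61 ± 0.39 SE, limma adjusted p = 0.00695), 12.1-fold at 100 and 14.5-fold at 1000 IU/ml. With IFN beta its log2 change was 0.28 ± 0.44 at 10 IU/ml (adjusted p = 1.00) and 2.12 ± 0.44 at 100 IU/ml (adjusted p = 0.169), and it rose 13.4-fold at 1000 IU/ml. With date as a block, the change at 100 IU/ml IFN beta was 2.39 ± 0.27 and passed the test (limma adjusted p = 0.00322).

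**Figure D1:**
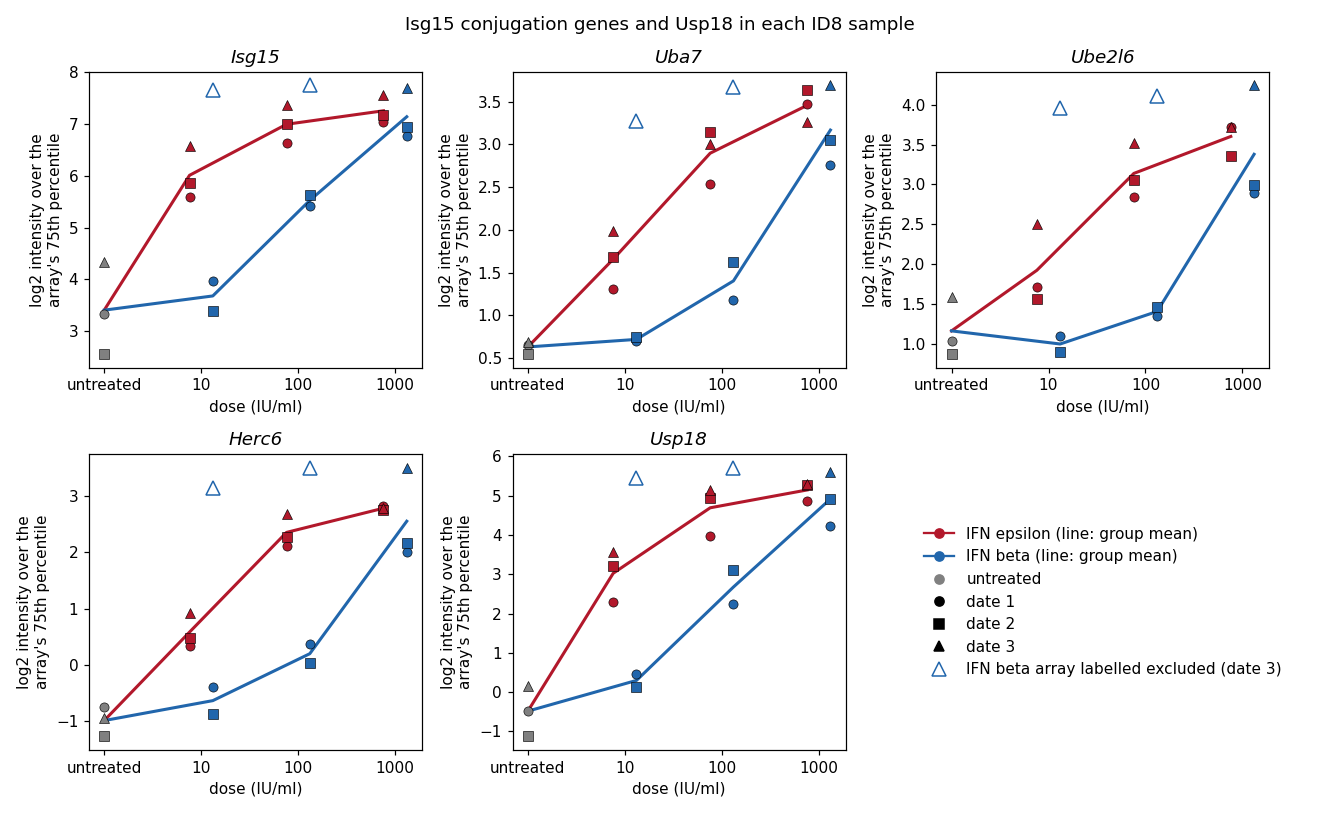
Log2 intensity over the array's 75th percentile (vertical axes) of the 5 genes in each sample, against dose in IU/ml (horizontal axes), for IFN epsilon in red, IFN beta in blue and untreated cells in grey. Lines join group means, marker shapes give the 3 dates, and open triangles are the 2 IFN beta arrays labelled as excluded, which lie between 3.15 (Herc6 at 10 IU/ml) and 7.75 (Isg15 at 100 IU/ml), far above the other IFN beta samples of their dose.

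Uba7, the activating enzyme that joins Isg15 to itself as the first step, had a narrow spread in untreated cells. It stood at 1.30, 1.68 and 1.98 with 10 IU/ml IFN epsilon, at 2.54, 3.14 and 3.01 with 100 IU/ml and at 3.48, 3.63 and 3.26 with 1000 IU/ml. The IFN beta samples had 0.69 and 0.74 at 10 IU/ml, 1.18 and 1.62 at 100 IU/ml, and 2.76, 3.05 and 3.69 at 1000 IU/ml, against 0.65, 0.54 and 0.69 in untreated cells. Every treated sample was above every untreated one, although at 10 IU/ml IFN beta the lowest sample and the highest untreated one both round to 0.69. Uba7 rose 4.82-fold at 100 IU/ml (log2 2.27 ± 0.23, limma adjusted p = 6.46e-05) and 7.11-fold at 1000 IU/ml IFN epsilon, and 5.82-fold at 1000 IU/ml IFN beta. At 10 IU/ml IFN epsilon its log2 change of 1.03 ± 0.23 had a limma adjusted p of 0.186, which was 0.0350 with date as a block. At 100 IU/ml IFN beta the change was 0.77 ± 0.26 (adjusted p = 1.00).

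Ube2l6, the conjugating enzyme that carries Isg15 to its ligase, changed less than the other 4 genes in each group but that of 10 IU/ml IFN beta. It had 1.71, 1.56 and 2.50 with 10 IU/ml IFN epsilon, 2.85, 3.05 and 3.52 with 100 IU/ml, and 3.73, 3.36 and 3.73 with 1000 IU/ml. With IFN beta it had 1.09 and 0.90 at 10 IU/ml, 1.35 and 1.46 at 100 IU/ml, and 2.90, 2.99 and 4.24 at 1000 IU/ml, against 1.03, 0.87 and 1.58 in untreated cells. The groups at 10 IU/ml of either interferon and at 100 IU/ml IFN beta overlapped untreated cells, whose date 3 sample was the highest of the 3. Ube2l6 rose 3.94-fold at 100 IU/ml (limma adjusted p = 0.00513) and 5.43-fold at 1000 IU/ml IFN epsilon, and 4.65-fold at 1000 IU/ml IFN beta (limma adjusted p = 0.00145). Its log2 change at 10 IU/ml was 0.76 ± 0.33 with IFN epsilon and -0.16 ± 0.37 with IFN beta (adjusted p = 1.00 each). The negative value rests on the dates: with date as a block it was 0.07 ± 0.21, and on both dates with a sample the IFN beta value exceeded the untreated one.

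Herc6, the ligase that transfers Isg15 to its targets in mouse, had the largest changes of the 3 enzymes. IFN epsilon gave 0.35, 0.48 and 0.93 at 10 IU/ml, 2.11, 2.28 and 2.67 at 100 IU/ml and 2.82, 2.75 and 2.78 at 1000 IU/ml. The 3 samples at 1000 IU/ml IFN epsilon lay within 0.07 of each other. IFN beta gave -0.40 and -0.86 at 10 IU/ml, 0.37 and 0.03 at 100 IU/ml, and 2.00, 2.17 and 3.49 at 1000 IU/ml, against -0.74, -1.27 and -0.95 in untreated cells. The samples at 10 IU/ml IFN beta overlapped untreated cells and those of the other treated groups lay above them. Herc6 rose 10.1-fold at 100 IU/ml (log2 3.34 ± 0.31, limma adjusted p = 2.56e-05) and 13.6-fold at 1000 IU/ml IFN epsilon, and 11.6-fold at 1000 IU/ml IFN beta. At 10 IU/ml IFN epsilon the change of 1.57 ± 0.31 had a limma adjusted p of 0.0783, and 0.0124 with date as a block. At 100 IU/ml IFN beta the change of 1.19 ± 0.35 did not pass the test in either fit (limma adjusted p = 1.00, and 0.133 with the block).

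Usp18, the protease that removes Isg15 and restrains the receptor, went further than the 4 genes of conjugation. It had 2.28, 3.22 and 3.57 with 10 IU/ml IFN epsilon, 3.98, 4.95 and 5.15 with 100 IU/ml, and 4.85, 5.28 and 5.31 with 1000 IU/ml. IFN beta samples had 0.45 and 0.14 at 10 IU/ml, 2.24 and 3.11 at 100 IU/ml, and 4.23, 4.93 and 5.59 at 1000 IU/ml, against -0.48, -1.13 and 0.16 in untreated cells. Samples at 10 IU/ml IFN beta overlapped untreated cells because the untreated sample of date 3 was just above the IFN beta sample of date 2. Usp18 rose 11.4-fold at 10 IU/ml IFN epsilon (log2 3.51 ± 0.44, limma adjusted p = 0.00119), 36.1-fold at 100 and 49.5-fold at 1000 IU/ml. Without a block it was the only one of the 5 called at 100 IU/ml IFN beta (8.93-fold, log2 3.16 ± 0.49, limma adjusted p = 0.0172), and it rose 42.2-fold at 1000 IU/ml. Among all 14300 genes tested, ordered by log2 change, Usp18 ranked 4 at 10 IU/ml IFN epsilon, 10 at 100 IU/ml and 16 at 1000 IU/ml. With IFN beta it ranked 122, 3 and 13 at these doses.

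Counted over the comparisons with untreated cells, 2 of the 5 genes were called higher at 10 IU/ml IFN epsilon, 5 of 5 at 100 IU/ml and 5 of 5 at 1000 IU/ml. The shares of all 14300 tested genes called higher there were 0.203%, 1.06% and 2.26%. For IFN beta the counts were 0 at 10 IU/ml, 1 at 100 IU/ml and 5 at 1000 IU/ml, beside 0%, 0.112% and 1.6% of all genes. The count of 0 at 10 IU/ml IFN beta came from limma, where 0 of the 5 had an unadjusted p under 0.05, beside 46 of all 14300 genes. Replicate numbers mark dates, and with date as a block the counts became 4 at 10 IU/ml IFN epsilon, beside 0.503% of all genes, and 2 at 100 IU/ml IFN beta, beside 0.287%. Within single dates, each of the 80 differences between a treated and an untreated sample was positive, with the smallest at 0.03 (10 IU/ml IFN beta). These are 5 correlated genes set against the same untreated samples, so they are not 80 separate trials. The share over all genes was not counted.

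**Figure D2:**
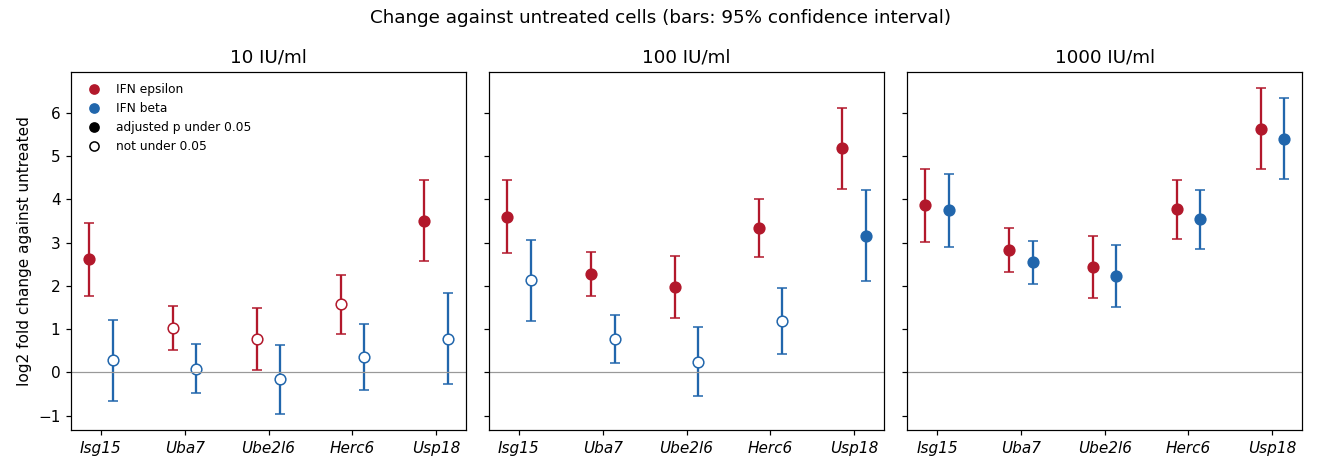
Log2 fold change of each gene against untreated cells (vertical axis) at 10, 100 and 1000 IU/ml (panels), for IFN epsilon in red and IFN beta in blue, with 95% confidence intervals. Filled points had an adjusted p under 0.05. At 1000 IU/ml the points of both interferons nearly coincide for each gene, and at 10 IU/ml only Isg15 and Usp18 with IFN epsilon are filled.

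With any single sample left out, the count stayed at 5 of 5 for IFN epsilon at 100 and 1000 IU/ml and for IFN beta at 1000 IU/ml. Without all samples of date 2, the counts there were 0, 1 and 0. The calls over all genes fell as well, from 152, 333 and 230 to as low as 11, 36 and 24 among the fits with a sample or date left out. The calls at lower doses changed with single samples. At 10 IU/ml IFN epsilon, Isg15 lost its call without the IFN epsilon sample of date 3 (log2 2.33, limma adjusted p = 0.0612). At 100 IU/ml IFN beta, the count was 0 without either IFN beta sample or without the untreated sample of date 1 or date 2, and 2 without that of date 3. Wherever a sample of IFN beta at 10 or 100 IU/ml is left out, the lone remaining one is assumed to vary like the other groups. With the 2 excluded arrays in the fit, 1 of the 5 genes was called at 1000 IU/ml IFN epsilon and 0 in the other comparisons with untreated cells. With date as a block too, 2 were called at 100 IU/ml IFN epsilon and 5 of 5 at 1000 IU/ml of either interferon. The log2 changes with IFN epsilon and with 1000 IU/ml IFN beta were the same with and without these arrays, and their SE was larger with them. For Usp18 at 100 IU/ml IFN epsilon the change was 5.18 in both fits, and the SE rose from 0.44 to 1.08. The share of all genes called in the fit with these arrays is not given here. Over all alternative fits, the calls over all genes ranged from 0 to 246 at 100 IU/ml and 36 to 1628 at 1000 IU/ml IFN epsilon. For 1000 IU/ml IFN beta the range was 0 to 497.

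The part of the 1000 IU/ml log2 change reached at the lower doses differed between the 5 genes in these samples. No dose needed for a given effect was estimated. Isg15 reached 67.6% and Usp18 62.3% of their log2 change at 1000 IU/ml already at 10 IU/ml IFN epsilon. Herc6 reached 41.7%, Uba7 36.3% and Ube2l6 31.2%. At 100 IU/ml IFN epsilon all 5 genes lay between 80.2% (Uba7) and 93.2% (Isg15). With IFN beta at 100 IU/ml, Usp18 reached 58.5% and Isg15 56.8% of the change at 1000 IU/ml, against 33.5% for Herc6, 30.5% for Uba7 and 11% for Ube2l6. Those IFN beta shares set 2 dates against 3. Over dates 1 and 2 alone they were 64.7% for Usp18, 65.9% for Isg15, 39.1% for Herc6, 34.8% for Uba7 and 22.8% for Ube2l6. With the 2 excluded arrays, the shares at 100 IU/ml IFN beta were 77.3% for Usp18, 76.6% for Isg15, 64.7% for Herc6, 60.3% for Uba7 and 51.7% for Ube2l6. Isg15 and Usp18 had the larger shares at 10 IU/ml IFN epsilon and 100 IU/ml IFN beta with and without these arrays. The gap at 100 IU/ml IFN beta was smaller with them, as a description without a test between genes. At 10 IU/ml IFN beta the shares were 14.5% for Usp18, 10.0% for Herc6 and 7.35% for Isg15. Uba7 had 3.48% and Ube2l6 -7.42%, so Isg15 lay below Herc6 there. With the excluded arrays Isg15 (42.9%) again lay below Herc6 (45.6%), and Usp18 had 46.2%. Over dates 1 and 2 alone Isg15 (18.8%) lay above Herc6 (12.1%).

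**Figure D3:**
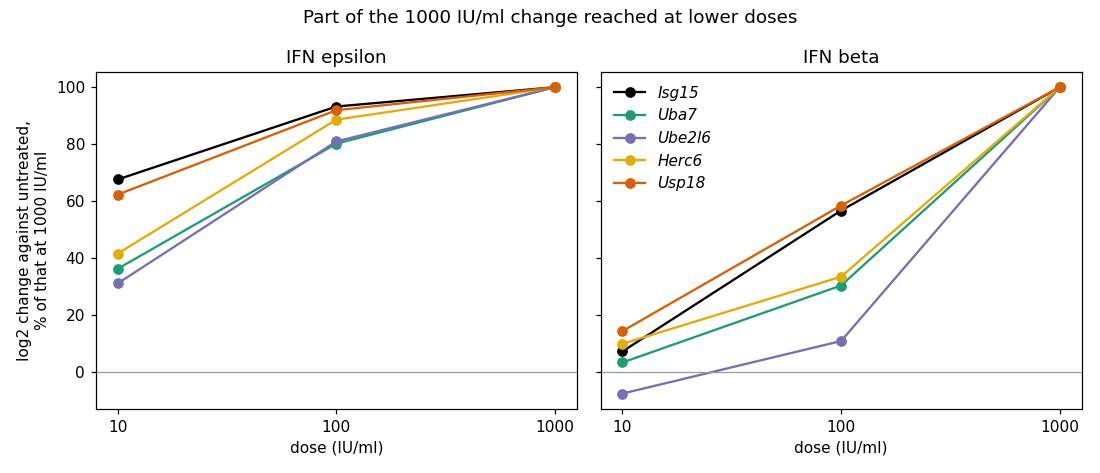
Log2 change against untreated cells as a percent of the same gene's change at 1000 IU/ml (vertical axis), by dose in IU/ml (horizontal axis), for IFN epsilon (left) and IFN beta (right). The Isg15 and Usp18 lines run above the other 3 at 10 IU/ml IFN epsilon (67.6% and 62.3%) and at 100 IU/ml IFN beta (56.8% and 58.5%). At 10 IU/ml IFN beta the Isg15 point (7.35%) lies below that of Herc6 (10.0%).

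Raising IFN epsilon to 100 IU/ml, against 10 IU/ml, gave log2 differences of 0.99 for Isg15, 1.24 for Uba7, 1.22 for Ube2l6, 1.77 for Herc6 and 1.67 for Usp18. All samples at 100 IU/ml lay above all samples at 10 IU/ml for each gene, and how many of all genes separate this way was not counted. Of the 5, 0 passed the limma test (0.0699% of all genes did), while 5 of 5 had an unadjusted p under 0.05, as did 389 of all 14300 genes. With date as a block, Uba7, Ube2l6, Herc6 and Usp18 were called (limma adjusted p = 0.0203 to 0.0342), beside 0.385% of all genes, and Isg15 was not (0.159). The step to 1000 IU/ml, against 100 IU/ml, was smaller, at 0.26 for Isg15 to 0.56 for Uba7, with 0 of the 5 and 0% of all genes called, and 1 of the 5, Uba7, at an unadjusted p under 0.05. Of all 14300 genes, 426 had an unadjusted p under 0.05 at this step. With median scaling the Isg15 step was -0.10, beside a median over all genes of -0.35, so that relative to all genes it was 0.26. Over the whole range, 1000 against 10 IU/ml IFN epsilon, Uba7 (1.80), Ube2l6 (1.68), Herc6 (2.20) and Usp18 (2.12) were called, beside 1.42% of all genes. Isg15, at 1.25 ± 0.39, was called only with date as a block (limma adjusted p = 0.238, and 0.0102 with the block, where 3.45% of all genes were called). Without the IFN epsilon sample of date 1 or date 3 at 1000 IU/ml, or of date 1 or date 2 at 10 IU/ml, the count over the whole range was 2.

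For IFN beta, in the samples that the labels keep, the larger part of the response of Uba7, Ube2l6 and Herc6 came at the last step. The differences at 1000 IU/ml, against 100 IU/ml, were 1.77 for Uba7 (limma adjusted p = 0.0107), 1.97 for Ube2l6 (0.0293) and 2.35 for Herc6 (0.0108), and these 3 were called, beside 0.503% of all genes. Isg15 at 1.62 and Usp18 at 2.24 were not called without a block (adjusted p = 0.211 and 0.0719) and were called with it, which made 5 of 5, beside 0.888% of all genes. The count without a block was 0 without the IFN beta sample of date 1 at 100 IU/ml and 1 without that of date 2. With the 2 excluded arrays the step was 1.01 for Uba7, 1.07 for Ube2l6 and 1.25 for Herc6, 0 of the 5 genes were called, and the larger part of the response of these 3 genes then lay at or below 100 IU/ml. The step of IFN beta to 100 IU/ml, against 10 IU/ml, was largest for Usp18 (2.38) and Isg15 (1.85) and smallest for Ube2l6 (0.41), with 2 samples in each group. There 0 of the 5 and 0% of all genes were called by limma, although 4 of the 5 had an unadjusted p under 0.05, as did 132 of all 14300 genes. Between 1000 and 10 IU/ml IFN beta, 5 of 5 genes were called, beside 1.14% of all genes, with log2 differences of 2.38 (Ube2l6) to 4.62 (Usp18).

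Set against IFN beta at the same dose, IFN epsilon gave higher mean values of all 5 genes at 10 and at 100 IU/ml in the samples that the labels keep. The log2 difference at 10 IU/ml was 2.73 ± 0.49 for Usp18 and 2.33 ± 0.44 for Isg15, and 1.22 for Herc6, 0.94 for Uba7 and 0.93 for Ube2l6. Every IFN epsilon sample lay above both IFN beta samples for each gene, and how many of all genes separate this way was not counted. None of the 5 passed the limma test (0.0979% of all genes did), though 5 of 5 had an unadjusted p under 0.05, as did 134 of all 14300 genes. A block for date led to calls of Isg15 (2.06 ± 0.27) and Usp18 (2.48 ± 0.34) (limma adjusted p = 0.0175 each), beside 0.119% of all genes. Over dates 1 and 2 alone, the differences were 2.05 for Isg15 and 2.45 for Usp18. With the excluded array in the fit, they shrank to 1.00 ± 0.85 for Isg15, 1.01 ± 1.08 for Usp18 and 0.088 ± 0.61 for Uba7, and turned to -0.063 ± 0.74 for Ube2l6 and -0.044 ± 0.89 for Herc6 (SE), with 0 of the 5 called.

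At 100 IU/ml the order of the genes was another one: Herc6 (2.15 ± 0.35, limma adjusted p = 0.0278) and Uba7 (1.50 ± 0.26, adjusted p = 0.0499) were called higher with IFN epsilon than with IFN beta, beside 0.105% of all genes. Ube2l6 at 1.73 (adjusted p = 0.125), Usp18 at 2.02 (0.217) and Isg15 at 1.47 (0.639) were not. With date as a block, Herc6, Uba7 and Ube2l6 were called (adjusted p = 0.0161 to 0.0189), beside 0.378% of all genes, and Usp18 just missed the threshold (0.0504). The count without a block was 0 without the IFN epsilon sample of date 2 or date 3 or the IFN beta sample of date 1, and 1 without the IFN beta sample of date 2. On dates 1 and 2, the 2 with both interferons, each of the 20 differences at 10 and 100 IU/ml was positive. The genes rise and fall together, so these are not 20 separate trials, and the share over all genes was not counted. With the excluded array in the fit, the differences at 100 IU/ml were 1.05 ± 0.89 for Herc6, 0.74 ± 0.61 for Uba7, 0.83 ± 0.74 for Ube2l6, 1.00 ± 1.08 for Usp18 and 0.73 ± 0.85 for Isg15, and 0 of the 5 were called.

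At 1000 IU/ml the log2 differences were 0.12 for Isg15 (95% confidence interval -0.73 to 0.96), 0.29 for Uba7 (-0.21 to 0.79), 0.22 for Ube2l6 (-0.49 to 0.94), 0.23 for Herc6 (-0.44 to 0.90) and 0.23 for Usp18 (-0.71 to 1.17). These intervals reach 1.73-fold to 2.25-fold in favour of IFN epsilon. The samples of both groups overlapped for each gene, 0 of the 5 were called by limma (0 at an unadjusted p under 0.05), and 0% of all genes were. Of all 14300 genes, 186 had an unadjusted p under 0.05. Within dates, 10 of 15 differences were positive, all from dates 1 and 2, and on date 3 IFN beta was higher for each gene. The share over all genes was not counted. On date 3 the IFN epsilon array had a median intensity of 51.6 and 58.8% of spots well above background. The IFN beta array of that date had 23.2 and 52.1%. Whether this bears on the differences of date 3 was not tested. With medians in place of 75th percentiles, the median difference over all genes moved to -0.25, and relative to it the 5 differences were 0.13 (Isg15) to 0.30 (Uba7).

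**Figure D4:**
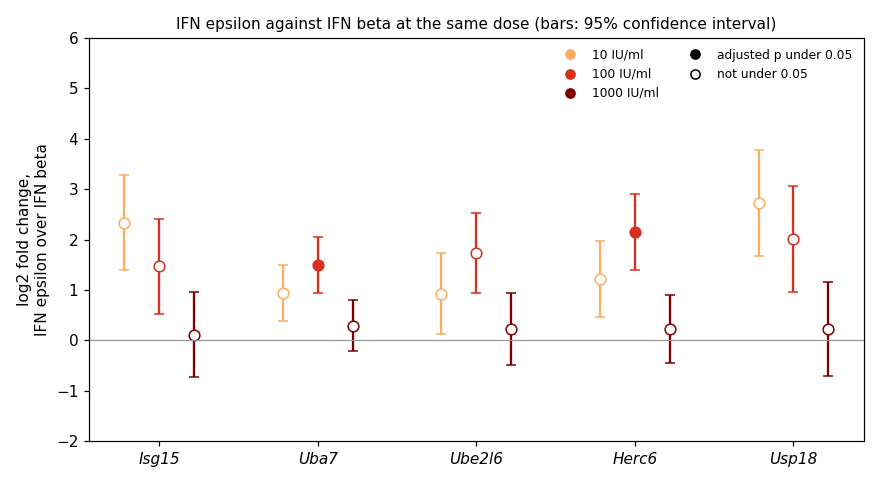
Log2 fold change of IFN epsilon over IFN beta at the same dose (vertical axis) for each gene, with 95% confidence intervals, at 10, 100 and 1000 IU/ml in darkening colours. Filled points (Uba7 and Herc6 at 100 IU/ml) had an adjusted p under 0.05. The points at 1000 IU/ml lie between 0.12 and 0.29 and their intervals include 0.

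The rise with dose was also compared between the interferons. Between 10 and 1000 IU/ml, Isg15 gained 2.22 less (SE 0.59) and Usp18 2.50 less (SE 0.66) with IFN epsilon than with IFN beta on the log2 scale, and Herc6 0.99 less, Ube2l6 0.70 less and Uba7 0.65 less. None of the 5 differences, and 0% of all genes, passed the limma test (adjusted p = 1.00 each), with 2 of the 5, Isg15 and Usp18, at an unadjusted p under 0.05 (0.00209 and 0.00192). Of all 14300 genes, 127 had an unadjusted p under 0.05. Under the date block the lowest adjusted p was 0.591. With the 2 excluded arrays, Isg15 gained 0.89 less (SE 1.20) and Usp18 0.78 less (SE 1.52) with IFN epsilon, and the signs of Herc6 (0.27), Ube2l6 (0.29) and Uba7 (0.20) turned.

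Ordered by mean level in the samples that the labels keep, the 7 groups ran the same way for Isg15, Uba7, Herc6 and Usp18: untreated, IFN beta 10, IFN beta 100, IFN epsilon 10, IFN epsilon 100, IFN beta 1000 and IFN epsilon 1000 IU/ml. Ube2l6 differed only at the low end, with untreated cells above IFN beta 10. The groups fell into neighbours of unequal dose, IFN epsilon 10 beside IFN beta 100 and IFN epsilon 100 beside IFN beta 1000. The difference between IFN epsilon 10 and IFN beta 100 was 0.49 for Isg15, 0.25 for Uba7 and 0.35 for Usp18, each less than the larger SD of the 2 groups. For Ube2l6 (0.52) and Herc6 (0.38) it was slightly more than that SD. These differences set IFN epsilon samples of dates 1, 2 and 3 against IFN beta samples of dates 1 and 2. Date 3 was the highest at IFN epsilon 10 for all 5 genes. Over dates 1 and 2 alone, the change against untreated cells was 0.68 against 0.45 for Ube2l6 and 1.42 against 1.21 for Herc6. On date 1, Herc6 was lower with IFN epsilon 10 (0.35) than with IFN beta 100 (0.37). IFN beta 1000 exceeded IFN epsilon 100 by 0.15 to 0.27, less than the larger SD for all 5 genes. The neighbours IFN epsilon 100 and IFN epsilon 10 differed by more than the larger SD for all 5. With the 2 excluded arrays, IFN beta 100 lay above IFN epsilon 10 for all 5 genes, and IFN beta 10 lay above IFN epsilon 10 for Ube2l6 and Herc6.

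Across the 19 samples the 5 genes rose and fell together. Pearson's r between pairs of them was 0.912 (Ube2l6 with Usp18) to 0.988 (Isg15 with Usp18), as a description, since the samples share doses and dates. After dates were removed, r was highest for Isg15 with Usp18 (0.996) and Uba7 with Ube2l6 (0.994). The genes most like each member were named by Pearson's r over the 19 samples among 14261 genes. For Isg15 they were Irf7, a transcription factor of the interferon response (r = 0.995), Xaf1 and Ddx58, the RNA sensor RIG-I. For Usp18 they were Trim34a (0.992), Ifit1 and Irf7, so Irf7 was named for both. For Uba7 they were Gbp7 (0.994), Gvin1 and Cmpk2, for Ube2l6 Parp12 (0.987), Ifih1, the RNA sensor MDA5, and BC051226, and for Herc6 Zbp1 (0.991), Pml and Ifi204. The mean of the 5 genes was most like Samd9l (0.995), Mitd1, Parp9, Parp14 and Igtp. Such lists shifted with the measure: by Spearman's rho, 0 of the 3 genes remained in the top 3 for Isg15, Herc6 and Usp18, and 1 for Uba7 and for Ube2l6. For the mean of the 5 genes, 0 of the 5 named remained in the top 5. By Pearson's r after dates were removed, 2 of 3 remained for Isg15 and for Usp18. There 0 of 3 remained for Uba7, Ube2l6 and Herc6, and 2 of 5 for the mean.

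Other genes that act on Isg15, or belong to the families of its enzymes, were read beside the 5. Of 31 such genes, all tested, Trim25 and Usp25 were called, both higher and both at 100 and 1000 IU/ml IFN epsilon and 1000 IU/ml IFN beta, and 0 were called lower. The shares of all genes called higher in these 3 comparisons were 1.06%, 2.26% and 1.6%. A block for date added Trim25 at 10 IU/ml IFN epsilon (log2 1.15, limma adjusted p = 0.00116, beside 0.503% of all genes) and at 100 IU/ml IFN beta (1.12, adjusted p = 0.00571, beside 0.287%). Trim25, a ubiquitin ligase of the RIG-I pathway that also has Isg15 ligase activity, had log2 changes of 1.60, 1.93 and 1.85 in these groups. Usp25, a ubiquitin protease of the same family as Usp18, had 0.89, 1.40 and 1.26. The median log2 change of the 31 genes was -0.02, -0.04 and -0.01, against -0.06, -0.05 and -0.04 over all genes. Uba1, Ube2l3 and Herc3, relatives that serve ubiquitin, named after their values were seen, were among the 29 genes with no call against untreated cells.

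Proteins reported to carry Isg15 were listed as 25 genes, of which 23 were tested, and Mx1 and Rnf213 were not analysed here. At 10, 100 and 1000 IU/ml IFN epsilon 2, 6 and 6 of them were called higher, and with IFN beta 0, 0 and 6, with 0 lower in any of these. The shares of all genes called higher were 0.203%, 1.06% and 2.26% with IFN epsilon and 0%, 0.112% and 1.6% with IFN beta. The largest changes were those of Ifit3 and Ifit1, RNA-binding antiviral proteins, at 7.94 and 7.10 with 1000 IU/ml IFN epsilon and 7.30 and 6.83 with 1000 IU/ml IFN beta. Ddx58, Eif2ak2 and Parp12, named after their values were seen, were also among the genes called at 1000 IU/ml of either interferon. Under the date block the counts were 5 at 10 IU/ml IFN epsilon (0.503% of all genes) and 2 at 100 IU/ml IFN beta (0.287%). The median of the 23 genes at 1000 IU/ml was -0.05 with IFN epsilon and 0.00 with IFN beta, close to the medians of all genes, so the calls came from a minority of the list.

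Usp18 acts on the type I interferon receptor, and 12 genes of that signalling were read beside it. Called higher were 3, 4 and 4 of them at 10, 100 and 1000 IU/ml IFN epsilon and 0, 0 and 4 with IFN beta, with 0 lower, beside the same shares of all genes. At 1000 IU/ml IFN epsilon and IFN beta, Irf7 had log2 changes of 3.89 and 3.67, Stat2 2.91 and 2.81, and Irf9 1.64 and 1.58. The receptor chains Ifnar1 and Ifnar2 and the kinases Jak1 and Tyk2, named after their values were seen, were not called, with changes between -0.11 and 0.10 at these doses. With date as a block, 4 of the 12 were called at 10 IU/ml IFN epsilon, 3 at 100 IU/ml IFN beta and 5 at 1000 IU/ml of either interferon, where 4.61% (IFN epsilon) and 2.81% (IFN beta) of all genes were called.

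Slides hold several groups, so the same differences were taken within slides. All were positive in the comparisons with untreated cells except at 10 IU/ml IFN beta, where 7 of 10 were, and between the interferons 10 of 10 were positive at 10 and at 100 IU/ml and 8 of 10 at 1000 IU/ml. The share over all genes was not counted here either. With slide as a covariate, 0 of the 5 genes were called for IFN epsilon against IFN beta at 100 IU/ml. Without it 2 were, beside 0.105% of all genes, and the share with slide is not given here. The median log2 difference of the 5 genes was 1.72 with slide and 1.73 without.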

How the data were processed

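RNA of 24 single-colour arrays (3 slides of 8) was read from the deposited scanner files. Per the file headers, Agilent Feature Extraction 11.0.1.1 made this deposited intensity by subtracting each array's background, with no normalization across arrays. A deposited table of log2 values, used as an alternative, was made by the authors with R 3.6.1 and limma 3.42.0, per the submitters' processing notes. Its columns correlated with the scanner values at 0.989 to 0.995, and its normalization is not given in the sources used here. All its columns shared a minimum of -1.57 and a maximum of 18.5, with medians of 5.52 to 5.54, a form that quantile normalization leaves. The deposited values and the quantile alternative may therefore be nearly the same processing.

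The values analysed were log2 intensities minus the 75th percentile of the array, leaving out control spots and 79 to 280 outlier spots per array (0 were saturated). RefSeq accessions named 32994 of 56605 probes through GRCm38.p6, used for names and promoters. Probes had to exceed background well in at least 2 samples of some group, and the brightest stood for its gene. The 2 arrays of an untreated sample were averaged, giving 19 samples in 7 groups. limma 3.58.1 in R 4.3.3 fitted all groups without a block (12 residual degrees of freedom), with Benjamini-Hochberg adjustment over 14300 genes and calls at 0.05. The files hold no mean signal, so the normexp alternative used median signals. Other alternatives were date and slide as blocks, scaling, filters, probe choice, samples left out and the excluded arrays.

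Replicate numbers mark dates, per the series design text. Deviations from group means correlated at a median of 0.48 for 52 pairs of the same number (47 over 0.1) and -0.21 for 102 other pairs. The 5 genes and the lists were chosen with earlier results of these data known. Named genes were the 5, the 3 most like each and 5 most like their mean, called genes of the conjugation list and the 3 largest changes of the other lists. On simulated data for 1000 IU/ml IFN epsilon the fit was tested with genes of known change. That simulation drew independent noise without date effects, so it does not cover the correlation within dates. Python 3.11.15 and matplotlib 3.10.9 drew the plots. The number of arrays limits precision.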

Additional observations from a re-analysis of the deposited data

Results flagged for a closer look

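The 2 arrays labelled as excluded, IFN beta at 10 and at 100 IU/ml on date 3, were outside the comparisons and held a strong signal of all 5 genes, far above the untreated cells. At 10 IU/ml the excluded array exceeded the untreated mean on the log2 scale by 4.27 for Isg15, 2.64 for Uba7, 2.80 for Ube2l6, 4.13 for Herc6 and 5.93 for Usp18. At 100 IU/ml the excess was 4.35 for Isg15, 3.05 for Uba7, 2.95 for Ube2l6, 4.49 for Herc6 and 6.20 for Usp18. The 2 included samples at 10 IU/ml IFN beta averaged 0.28, 0.09, -0.16, 0.35 and 0.78 above the untreated mean for the same genes. The levels of the excluded arrays (Isg15 7.67 and 7.75, Usp18 5.44 and 5.71) were close to the sample given 1000 IU/ml IFN beta on the same date (7.70 and 5.59). Untreated cells of that date had 4.33 for Isg15 and 0.16 for Usp18. No cause was tested.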

How the results depend on the processing

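Of 1745 recomputed values of single genes, 1505 kept their direction and side of the threshold, 169 lost a call, 40 gained one and 31 changed sign. With the replicate block (date), members called were 4 for IFN epsilon 10 and 2 for IFN beta 100 against untreated, 2 for IFN epsilon against beta at 10, 4 for IFN epsilon 100 against 10 and 5 for IFN beta 1000 against 100 IU/ml. With block and slide, the counts were 2 (IFN beta 100), 2 (IFN epsilon against beta at 10) and 1 (IFN beta 1000 against 100). With slide alone, 0 were called for IFN beta 1000 against 100 and IFN epsilon against beta at 100, and 2 for IFN epsilon 1000 against 10. Median scaling, which moved the median of all genes to -0.43 for IFN epsilon 1000 and -0.19 for IFN beta 1000, gave 0 for IFN beta 100, IFN beta 1000 against 100, IFN epsilon 1000 against 10 and IFN epsilon against beta at 100. Quantile normalization gave 1 for IFN epsilon 100 against 10, and both this and the deposited values gave 2 for IFN beta 100 and for IFN epsilon against beta at 10, where normexp also gave 2. No filter on dim probes gave 0 for IFN epsilon against beta at 100. Fits of only the groups compared, with fewer samples, gave 0 for IFN epsilon 10, IFN beta 100, IFN epsilon against beta at 100 and both IFN beta steps to 1000, 2 for IFN epsilon 1000 against 10 and 3 for IFN beta 1000. With the excluded arrays, 1 was called for IFN epsilon 1000 and 0 in the other comparisons. With the block too, it was 2 for IFN epsilon 100, 5 of 5 for both interferons at 1000 IU/ml against untreated and 0 elsewhere. Changes between groups without an excluded array were the same as in the main fit, and their SE was larger. Leaving out a sample or a date gave 0 to 3 members for IFN epsilon 10, 0 to 5 for IFN epsilon 100, 1 to 5 for IFN epsilon 1000, 0 for IFN beta 10, 0 to 2 for IFN beta 100 and 0 to 5 for IFN beta 1000. For IFN epsilon against beta it gave 0 to 1 at 10, 0 to 3 at 100 and 0 at 1000, and for the steps 0 to 2 (IFN epsilon 100 against 10), 0 (1000 against 100), 0 to 5 (1000 against 10), 0 (IFN beta 100 against 10), 0 to 4 (1000 against 100) and 0 to 5 (1000 against 10), with 0 for the interaction. The lowest counts came from leaving out date 2: 0, 1 and 0 members at IFN epsilon 100, IFN epsilon 1000 and IFN beta 1000. Leaving out any single sample kept 5 of 5 called in these 3. Over all fits with a sample or date left out, the calls over all genes varied too. They were 0 to 41 for IFN epsilon 10, 11 to 159 for IFN epsilon 100 and 36 to 365 for IFN epsilon 1000. For IFN beta 100 they were 0 to 48, and for IFN beta 1000 they were 24 to 319. Sign changes follow. For IFN beta 10, leaving out samples or dates gave -0.15 to 0.74 for Isg15 (below 0 without untreated date 2, IFN beta date 1 or date 1) and -0.33 to 0.046 for Ube2l6 (above 0 without untreated date 3 or date 3). Ube2l6 there was 0.072 with the replicate block, 0.040 with block and slide, and 0.82 with the excluded arrays. With those arrays, IFN epsilon against beta at 10 was -0.063 for Ube2l6 and -0.044 for Herc6, and the interaction was 0.20 for Uba7, 0.29 for Ube2l6 and 0.27 for Herc6. For IFN epsilon against beta at 1000, median scaling gave -0.12 for Isg15, -0.011 for Ube2l6, -0.00376 for Herc6 and -0.00549 for Usp18, and -0.10 for Isg15 between IFN epsilon 1000 and 100, while the medians over all genes were -0.25 and -0.35, so that these values lay above them. Leaving out samples or dates gave -0.069 to 0.39 (Isg15), -0.078 to 0.66 (Ube2l6), -0.064 to 0.70 (Herc6) and -0.11 to 0.57 (Usp18) at 1000, below 0 without the IFN beta sample of date 1, and for some also without date 1 or the IFN epsilon sample of date 3. The causes were not tested.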
